A study of Mus musculus with 4 samples.

Results

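The 9 genes described here serve adhesion of lens cells to each other and to the lens capsule or, for Epha2 and Efna5, signalling between cells. All were followed in the newborn lens with and without Hsf4. They are the cadherins Cdh1 and Cdh2, the catenins Ctnna1, Ctnnb1 and Jup, the Eph receptor Epha2, the ephrin Efna5, and the integrin subunits Itga6 and Itgb1. Every probe set (a group of probes for 1 transcript) whose platform annotation names exactly 1 of these genes was taken, which gave 22 of the 45101 probe sets and 9 of the 18193 genes of the array. RNA came from lens tissue of mice at postnatal day 0.5, all of the 129S3 background and labelled male. The 2 groups were wild type and HSF4 knockout, with 2 arrays each, numbered 1 and 2 in the labels. No other allele or treatment is named. The labels do not say whether a sample was 1 animal or a pool, and the p-values therefore speak only of how far these 4 arrays vary, of which a share can be technical.

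Cadherins are transmembrane proteins that bind the same protein on a neighbouring cell. Their inner tails bind beta-catenin or plakoglobin, and alpha-catenin links that complex to actin. In the lens, E-cadherin (Cdh1) marks the anterior epithelium, while N-cadherin (Cdh2) is present in epithelium and in the elongated fibre cells. EphA2, a receptor tyrosine kinase, and ephrin-A5, a membrane-anchored ligand of Eph receptors, are both known from cataract in mice that lack them. The alpha 6 and beta 1 integrin chains pair as a receptor for laminin, a main protein of the lens capsule.

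Levels are intensities after quantile normalization. Differences are given as log2 of (normalized intensity + 16), knockout minus wild type, with the standard error (SE) and a 95% interval from limma, a linear model with a spread shared across probe sets. The deposited intensities had medians of 21.4 and 10.5 on wild-type arrays 1 and 2 and 18.5 and 6.58 on knockout arrays 1 and 2. Knockout array 2 was thus the dimmest. After normalization its log2 values also correlated least with those of the other arrays (0.939 to 0.950). The number of arrays limits the precision. The 1 Hsf4 probe set was brighter on the arrays labelled knockout (1212 and 413 on arrays 1 and 2) than on those labelled wild type (505 and 138). Where its probes lie relative to the deleted part is unknown here, so it does not check the labels, and every direction refers to the arrays as labelled. Xist, expressed from the inactive X chromosome of females, measured 605 and 260.5 on wild-type and knockout array 1 and 58.0 and 9.01 on array 2 (brightest probe set), against the male label for the arrays numbered 1. Eif2s3y, a gene of the Y chromosome, measured 60.4 and 100.5 on array 1 and 208 and 161 on array 2. Values within number 2 are therefore the values without those arrays. Markers of the labelled tissue were present: all 8 lens epithelium genes and all 7 of the lens fibre genes with a probe set (of 9 listed) were bright enough to test.

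HSF4 is a heat shock factor, a family that binds inverted repeats of the triplet GAA. The start-site sequences of 3 of the genes are shown to set out how the binding units of the missing factor lie there: the Eph receptor, its ephrin, and beta-catenin. Each run is the 250 bases before the RefSeq start of the gene (build GRCm38.p6), 5′ to 3′ on the gene's strand, with every GAA and TTC in capitals. The positions are chr4:141300971-141301220 (plus strand) for Epha2, chr17:62881318-62881567 (minus strand) for Efna5 and chr9:120933150-120933399 (plus strand) for Ctnnb1.
Epha2: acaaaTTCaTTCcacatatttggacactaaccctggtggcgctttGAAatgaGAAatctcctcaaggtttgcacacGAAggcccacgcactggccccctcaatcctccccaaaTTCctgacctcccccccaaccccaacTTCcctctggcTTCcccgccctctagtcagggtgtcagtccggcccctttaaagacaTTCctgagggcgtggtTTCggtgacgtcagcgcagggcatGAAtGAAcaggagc
Efna5: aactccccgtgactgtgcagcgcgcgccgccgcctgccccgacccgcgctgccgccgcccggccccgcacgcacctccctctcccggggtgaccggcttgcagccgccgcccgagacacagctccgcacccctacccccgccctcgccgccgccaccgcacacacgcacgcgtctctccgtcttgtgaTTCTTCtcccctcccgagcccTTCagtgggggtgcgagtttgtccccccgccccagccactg
Ctnnb1: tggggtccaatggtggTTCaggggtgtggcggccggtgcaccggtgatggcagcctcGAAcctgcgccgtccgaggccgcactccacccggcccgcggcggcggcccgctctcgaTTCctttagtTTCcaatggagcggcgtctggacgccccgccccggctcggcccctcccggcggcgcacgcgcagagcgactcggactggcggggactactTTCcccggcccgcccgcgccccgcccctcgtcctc
The Epha2 run has 5 GAA and 7 TTC, the Efna5 run 0 and 3, and the Ctnnb1 run 1 and 4. GC bases make up 55.6% of the Epha2 run and 74.8% of each of the other runs. A unit pair was searched as GAANNTTC or TTCNNGAA, each of which reads the same on both strands. The window ran from 250 bases before to 50 bases after the start. It was matched for 6 starts of 5 of the genes (Epha2, Efna5, Ctnnb1 with 2 starts, Jup and Itgb1), and 0 of the 6 held a pair, against 15.1% of all 32851 promoters of the same length. With 3 alternating units, the pair followed by NN and its first triplet again and searched on both strands, 0 of the 6 held a match, against 0.603% of all. These letters are not in these windows, and more distant sequence was not searched. The windows of Ctnnb1 overlap each other, and 6 windows are too few to tell 0 from the share of all promoters. GC bases made up 54.7% to 75.3% of the 6 windows, against a median of 52.7% over all promoters. Cdh1, Cdh2, Ctnna1 and Itga6 are named only.

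For none of the 9 genes was a difference between the groups detected beyond the spread of the arrays. Of the 22 probe sets, 16 reached the minimum mean brightness for testing, and these covered all 9 genes. In limma, 0 of the 16 passed an adjusted p of 0.05 (Benjamini-Hochberg over 22519 probe sets, of which 0.0178% passed), and 0 had an unadjusted p under 0.05, against 2.33% of all. Every one of the 16 had a limma adjusted p of 1. The changes lay between -0.44 and 0.37, all 16 between the 5th (-0.57) and 95th (0.49) percentiles of the probe sets tested. Their median was -0.06, and that of all probe sets -0.01. With values as deposited and with median centring, all 16 were negative, and the median of all probe sets was itself -0.42 and -0.25. The median size of change regardless of sign was 0.14, against 0.20 for all. The spread left wide intervals, however. The SEs of the 16 ran from 0.20 to 0.45, so a change of the size of the interval ends given below cannot be told from none.

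**Figure D1:**
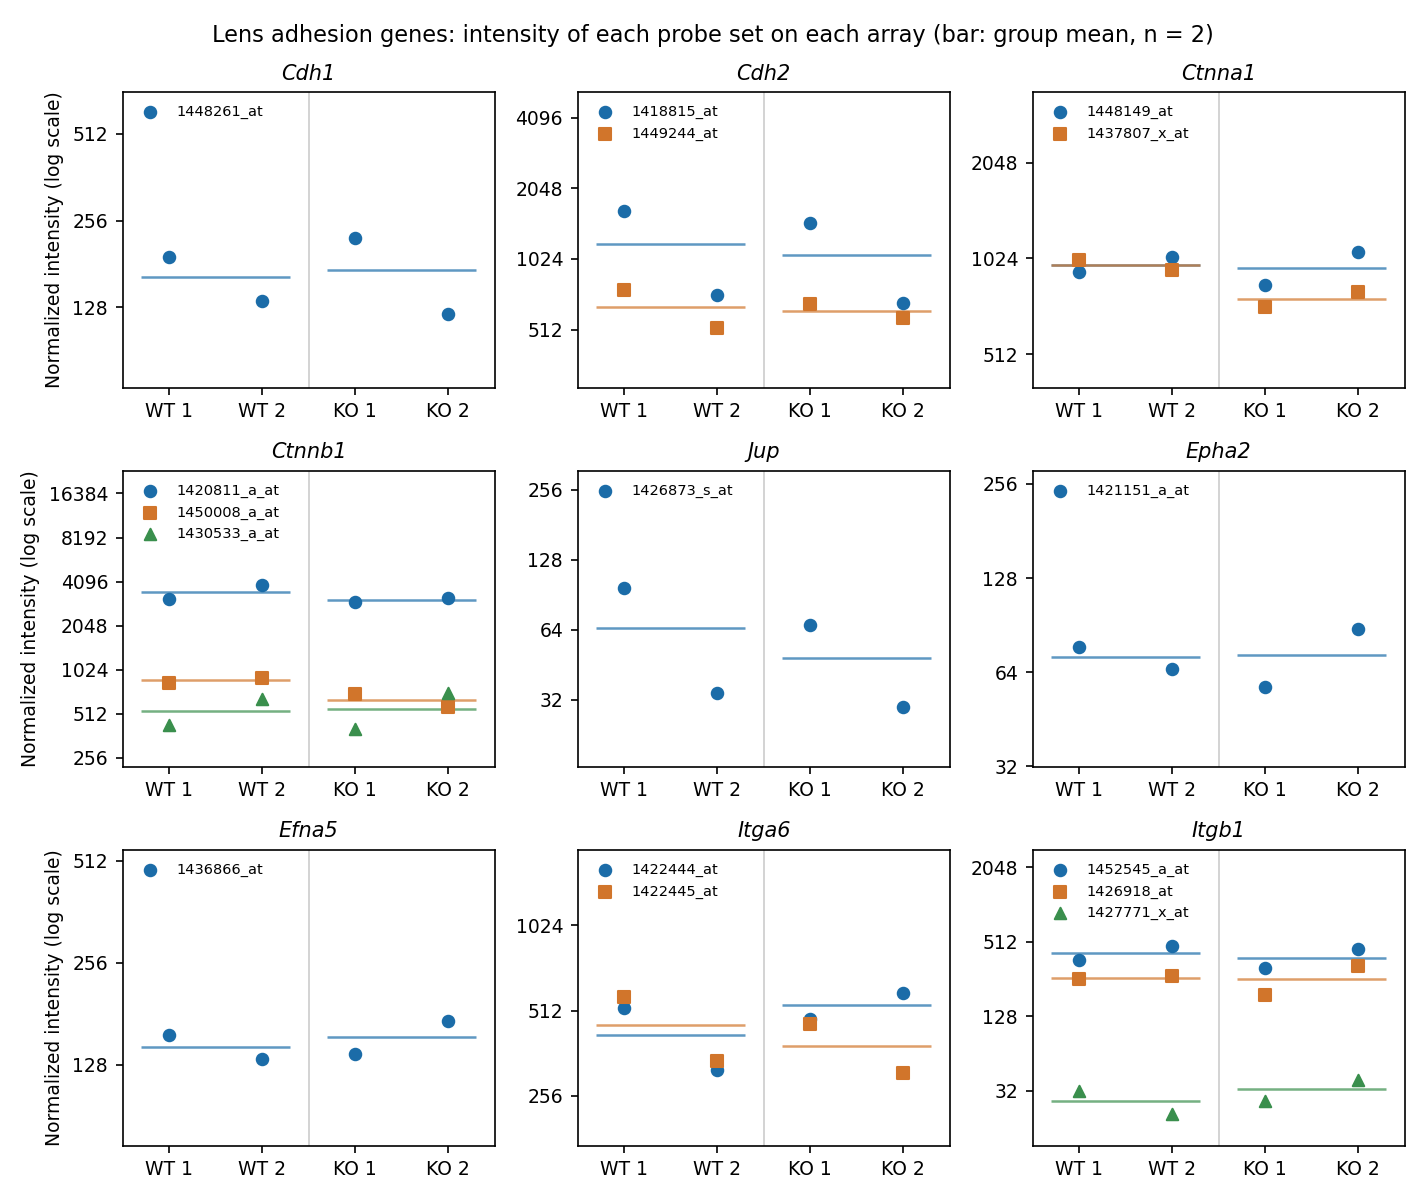
Normalized intensity (log scale) of each tested probe set of the 9 genes on the 4 arrays, with points for arrays and bars for the group means (n = 2). Cdh2 1418815_at and Jup are high on both arrays numbered 1 and low on both numbered 2, and only 1437807_x_at of Ctnna1 and 1450008_a_at of Ctnnb1 have knockout points wholly below the wild-type points.

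Of the cadherins, Cdh1 was measured by 1 probe set. Its intensity was 192 and 135 on wild-type arrays 1 and 2 and 224 and 121 on knockout arrays 1 and 2. The knockout pair spanned the wild-type pair, with the highest and the lowest value both in knockout. The group means were 163 ± 39.8 and 173 ± 72.4 (SD, n = 2 each), a log2 difference of 0.03 (SE 0.36, interval -0.78 to 0.85). The lens epithelium markers, whose cells carry Cdh1, had summed intensities from 4769 to 4849 in wild type and from 4165 to 4416 in knockout. Of these 8 markers, 6 had negative changes (median -0.17), against 5959 of all 11595 genes, and 0 passed the threshold. The other 2, Foxe3 and Mab21l1, had 0.10 and 0.03. In RNA of the bulk tissue, fewer cells of a type and less RNA per cell cannot be told apart.

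Cdh2 was measured by 2 probe sets. The first, 1418815_at, measured 1645 and 722 in wild type and 1462 and 665 in knockout. Both arrays numbered 1 stood above both arrays numbered 2, and the groups overlapped. Its log2 difference was -0.14 (SE 0.44, interval -1.13 to 0.85).

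The other Cdh2 probe set, 1449244_at, measured 758 and 521 in wild type and 657 and 575 in knockout. Here the knockout values lay inside the wild-type range, with a log2 difference of -0.03 (SE 0.29, interval -0.68 to 0.61). Lens fibre cells carry Cdh2, and 5 of their 7 tested markers had negative changes (median -0.05, 0 past the threshold), with summed intensities of 18370 and 15258 in wild type and 15745 and 16097 in knockout. Bfsp1, a fibre filament protein, had -1.06 and Dnase2b, a DNA-degrading enzyme, -1.25, both with separate groups, lower in knockout. Mip had 0.29, with separate groups but higher in knockout (4228 and 3670 in wild type, 4896 and 4746 in knockout). Lim2, Gja3 and Birc7 had -0.11, -0.05 and -0.01 with overlapping groups. Bfsp2 measured 180.1 and 268 in wild type and 60.1 and 2907 in knockout. The sum of 16097 on knockout array 2 includes that 2907, so its place within the wild-type range rests on this 1 marker. These genes were named after their values were known. The part of fibre cells in the Cdh2 values was not tested. The sign of Cdh2 within the numbers was the same for 1418815_at (-0.17 and -0.12) and opposite for 1449244_at (-0.20 and 0.14).

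Among the catenins, Ctnnb1, which encodes beta-catenin, both a junction protein and a co-activator of Wnt target genes, was measured by 3 probe sets that did not give 1 picture. Probe set 1420811_a_at measured 3099 and 3888 in wild type and 2962 and 3158 in knockout (log2 -0.18, SE 0.20, interval -0.63 to 0.26). Knockout array 2 exceeded wild-type array 1, so its groups overlapped. Probe set 1450008_a_at measured 834 and 895 in wild type and 700.3 and 573 in knockout. Both knockout arrays were below both wild-type arrays, and its change of -0.44 (SE 0.26, interval -1.02 to 0.14) was the most negative of the 16. The last, 1430533_a_at, measured 430.0 and 643 in wild type and 401 and 704 in knockout (log2 0.02, SE 0.34). It followed the array number rather than the group, with both arrays numbered 2 above both numbered 1.

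Ctnna1, alpha E-catenin, the actin link of the cadherin complex, had 2 tested probe sets. Probe set 1448149_at measured 928 and 1032 in wild type and 848 and 1070.0 in knockout, where the knockout values again spanned the wild-type ones (log2 -0.04, SE 0.25, interval -0.60 to 0.53). Probe set 1437807_x_at measured 1009.6 and 944 in wild type and 722 and 801 in knockout. Its groups did not overlap, with a change of -0.35 (SE 0.24, interval -0.90 to 0.20). By the array's naming, an x_at probe set can share probes with other transcripts, so that value is less certain as a measure of Ctnna1. These probe sets of Ctnna1 and Ctnnb1 were the 2 of 16 whose groups were separate and lower in knockout, and 0 were separate and higher. Among all probe sets tested, 14.4% were separate and lower and 12.6% separate and higher, so 2 of 16 is near the background.

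Jup encodes plakoglobin, a relative of beta-catenin that also serves desmosomes, the junctions anchored to intermediate filaments. Its single probe set, 1426873_s_at, measured 96.5 and 34.1 in wild type and 67.0 and 29.7 in knockout. Wild-type array 1 was the highest and both arrays numbered 2 were low, so the groups overlapped. The log2 difference was -0.29 (SE 0.45, interval -1.29 to 0.72), the widest interval of the 16. By the array's naming, an s_at probe set can match several transcripts, so this value may not be Jup alone.

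For the Eph and ephrin pair, the arrays gave opposite signs within the numbers. Epha2 measured 77.3 and 65.7 in wild type and 57.4 and 88.0 in knockout, so that the knockout arrays held both the lowest and the highest value. The means were 71.5 ± 8.18 and 72.7 ± 21.7 (SD, n = 2 each), a log2 difference of 0.00 (SE 0.32, interval -0.72 to 0.72), made of -0.35 within number 1 and 0.35 within number 2. Efna5, by probe set 1436866_at, measured 156 and 133 in wild type and 137 and 172 in knockout. Its groups overlapped, the difference was 0.08 (SE 0.31, interval -0.60 to 0.77), and the values within the numbers were -0.17 and 0.34. Receptor and ligand both had their highest value on knockout array 2 and the next on wild-type array 1.

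The integrin chains also differed in sign between probe sets and between numbers. Itga6 was measured by 2 probe sets annotated to the same transcript. Probe set 1422444_at measured 524 and 317 in wild type and 478 and 590.1 in knockout, and 1422445_at measured 571 and 339 in wild type and 459 and 308 in knockout. The probe sets ran together on 3 arrays and apart on knockout array 2, which was the highest of the 4 for the first and the lowest for the second. Their log2 differences were 0.37 (SE 0.32, interval -0.35 to 1.08), the most positive of the 16, and -0.22 (SE 0.34, interval -0.99 to 0.55). Leaving out knockout array 2 gave 0.22 and 0.06, and leaving out knockout array 1 gave 0.52 and -0.50. With wild-type array 2 left out they were 0.018 and -0.58, and with wild-type array 1 left out 0.72 and 0.14.

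Itgb1, the beta 1 chain shared by many integrins, had 3 tested probe sets. Probe set 1452545_a_at measured 363 and 469 in wild type and 314 and 448 in knockout (log2 -0.13, SE 0.31, interval -0.82 to 0.55). Probe set 1426918_at measured 254 and 271 in wild type and 189 and 323 in knockout (log2 -0.08, SE 0.33, interval -0.82 to 0.67), and 1427771_x_at 31.9 and 20.8 in wild type and 26.8 and 39.0 in knockout (log2 0.21, SE 0.33, interval -0.53 to 0.94). In all 3 the groups overlapped, and the highest value for 1426918_at and 1427771_x_at was on knockout array 2, which was not so for 1452545_a_at. As an x_at probe set, 1427771_x_at can share probes with other transcripts, so it is less certain as a measure of Itgb1.

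Endothelial cells of the vessels around the newborn lens also carry both integrin chains, and their markers had the same signs within the numbers as several of these probe sets. The 8 vascular endothelium markers, all tested, had summed intensities of 736 and 579 on wild-type arrays 1 and 2 and 590.1 and 916 on knockout arrays 1 and 2. None was at 0, and the defining Cdh5 and Pecam1 measured from 31.9 to 60.7 and from 24.3 to 58.6. Of the 8, 6 were lower within number 1 (median -0.26) and 1 was lower within number 2 (median 0.71). In the same pairs Itga6 1422444_at had -0.13 and 0.86, Itgb1 1427771_x_at -0.16 and 0.58 and Itgb1 1426918_at -0.40 and 0.24. The other probe sets of these genes were lower in both pairs, Itga6 1422445_at with -0.30 and -0.13 and Itgb1 1452545_a_at with -0.20 and -0.07. Their part in the integrin values was not tested.

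**Figure D2:**
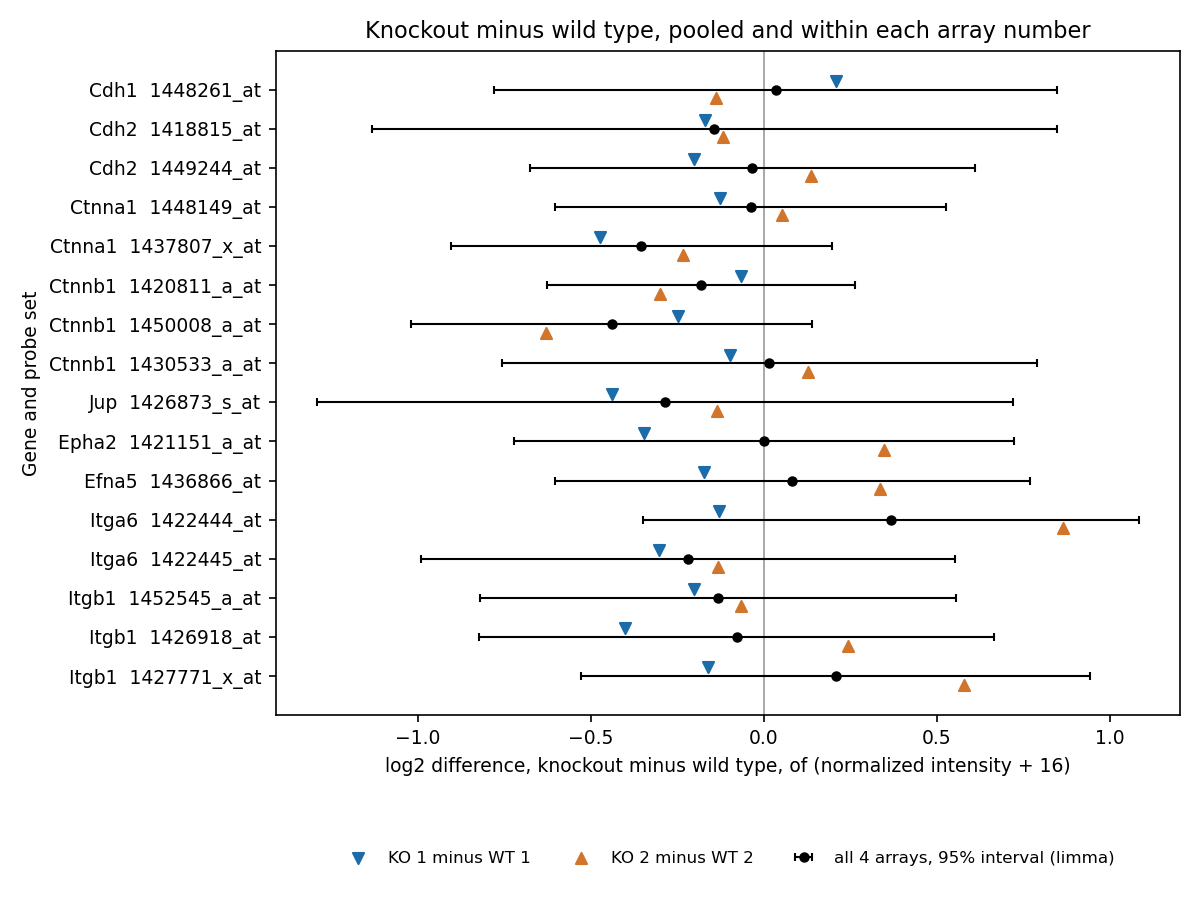
Log2 difference of knockout minus wild type for the 16 tested probe sets, with the value over all 4 arrays and its 95% interval (black) and the values within number 1 (blue) and number 2 (orange). Every interval includes 0, and every blue marker except that of Cdh1 lies below 0.

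Within the arrays numbered 1, lower values on the knockout array were seen for 15 of the 16 probe sets, the exception being Cdh1 at 0.21. The median was -0.19 and the lowest -0.47. Of all probe sets tested, 49.9% were lower in that pair, and of the brightest 30% of the array, 49.6% were, where 14 of the 15 adhesion probe sets of that brightness were lower. In the pair numbered 2, 8 of those 15 were lower, against 50.5%. Within number 2, 8 of the 16 were lower, against 51.5% of all, with values from -0.63 to 0.86 and a median of -0.01. The count in number 1 was 15 under all 6 other scalings and offsets tried (69.0% of all probe sets were lower there with values as deposited and 54.7% with median centring), while that in number 2 was 16 with values as deposited and 14 with median centring, where 93.6% and 84.0% of all probe sets were lower in that pair. In both numbers together, 7 of 16 were lower and 0 were higher, against 27.4% and 25.9% of all probe sets. A single pair of arrays has no replicate, and the probe sets of 1 gene are not independent. The striated muscle markers and most fibroblast markers were lower in both pairs (values below), and their part in these counts was not tested. By gene, with the brightest probe set for each, 8 of 9 were lower within number 1 and 5 of 9 within number 2, against 48.9% and 52.4% of all genes. Of 65 other tested genes of the same junctions and pathways (below), 44 were lower within number 1 and 31 within number 2.

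For several of the genes the array number separated the values further than the group did. Arrays numbered 2 were below arrays numbered 1 in both groups for 5 of 16 probe sets, which were those of Cdh1, both of Cdh2, Jup and Itga6 1422445_at, against 31.8% of all. For Cdh2 1418815_at the difference between numbers was -1.17 in wild type and -1.12 in knockout, and for Jup it was -1.17 and -0.86. For Cdh1 it was -0.46 and -0.80. A fall past 2-fold in both groups was seen for 1 of 16, Cdh2 1418815_at, against 1.25% of all. Conversely, Ctnnb1 1430533_a_at was 0.56 and 0.79 higher on the arrays numbered 2, and Itgb1 1452545_a_at 0.36 and 0.49 higher. The mean difference between numbers exceeded that between groups for 11 of 16 probe sets, against 61.3% of all, so this order of sizes was that of the arrays in general. The 18S ribosomal RNA control of the 3′ region was 12.8 and 10.6 on wild-type and knockout array 1 and 349 and 3228 on array 2. Its part in the adhesion values was not tested.

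**Figure D3:**
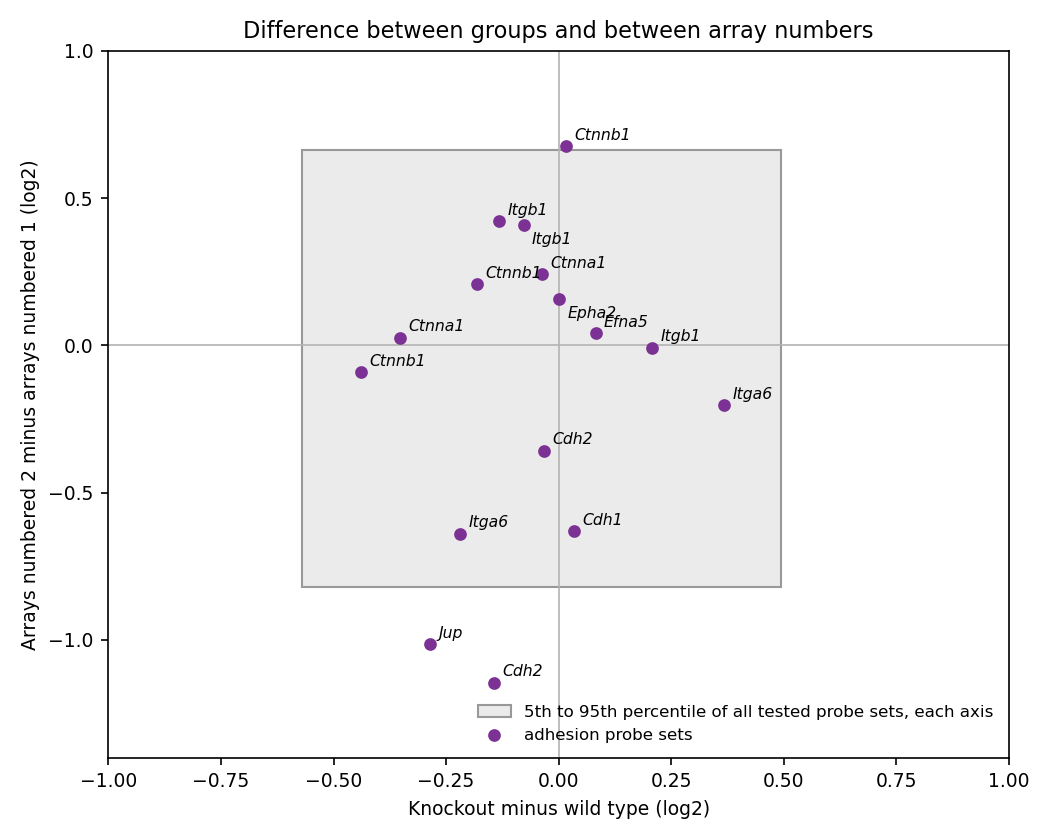
Mean log2 difference of the arrays numbered 2 from those numbered 1 (vertical) against the log2 difference of knockout from wild type (horizontal), with 1 point per tested adhesion probe set. The grey box spans the 5th to 95th percentiles of all 22519 probe sets on each axis. Cdh2 at -1.14 and Jup at -1.01 lie below the box and 1 Ctnnb1 point at 0.68 just above it, whereas none lies outside it on the horizontal axis.

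The 6 probe sets under the brightness minimum (a mean log2 of 4.86, an intensity of about 13.0) were given no test. They were 2 of Ctnna1, 1 of Efna5 and 3 of Itgb1. Efna5 1421796_a_at measured 5.06 and 4.02 in wild type and 7.51 and 13.7 in knockout. Ctnna1 1437275_at measured 0.78 and 0.12 in wild type and 7.05 and 0.92 in knockout. Both had separate groups, higher in knockout, with mean values below the minimum. The share with separate groups was counted among tested probe sets only (12.6% higher), so these have no background beside them and nothing is read from their order. The remaining 4 overlapped. Itgb1 1426920_x_at measured 7.95 and 0.70 in wild type and 3.52 and 25.1 in knockout, 1438119_at 1.85 and 10.9 against 5.24 and 7.44, and 1426919_at 0.38 and 2.63 against 0.43 and 6.11. The dimmest of the tested probe sets was Itgb1 1427771_x_at, described above, with a mean log2 of 5.50. Just outside the minimum lay Ctnna1 1436631_at with 14.2 and 7.82 in wild type and 13.4 and 11.9 in knockout.

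Of the 89 other genes of the same junctions and pathways that were listed, 86 had a probe set and 65 were bright enough to test. In limma, 0 of the 65 and 0 of the 9 described genes passed, against 0.0345% of all 11595 genes, and 0 of either had an unadjusted p under 0.05, against 2.35% of all. Their median change was -0.02, against -0.01 for all genes. The groups were separate and lower for 10 of 65 and separate and higher for 4, against 14.3% and 12.7% of all genes. Lower values within both numbers were seen for 21 of 65 and higher ones for 11, against 27.5% and 26.1%.

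All 7 of the 7 other Eph receptors tested had negative changes, from -0.75 to -0.02 (median -0.30), where 5959 of all 11595 genes were negative. The 7 were also negative under each of the 6 other scalings and offsets. Their median was -0.44 with values as deposited and -0.27 with median centring, close to that of all probe sets there. In 3 receptors (Epha3, Epha5 and Ephb1) the groups were separate, lower in knockout, against 14.3% of all genes. Epha3 measured 84.9 and 100.2 in wild type and 67.8 and 33.3 in knockout (log2 -0.75, SE 0.34, limma adjusted p = 1). Ephb1 measured 76.8 and 66.5 in wild type and 53.1 and 35.1 in knockout (log2 -0.56, SE 0.31). Both are receptors studied mainly in neurons, and in each the lowest value was on knockout array 2. Of 8 neural retina markers, 7 were tested and 0 passed the threshold. Their summed intensities were 2332 and 2565 in wild type and 2429 and 1376 in knockout. Knockout array 2 was lowest for that sum and for Neurod1, Neurod4, Otx2 and Crx, but not for Stmn2, Elavl3 or Atoh7. The median of the 7 markers was 0.05 within number 1 and -0.74 within number 2, where the Eph receptors had -0.27 and -0.62. The part of retinal RNA in the Eph values was not tested. Of the 7 other ephrins, 2 had negative changes (median 0.10). Efna3 measured 32.9 and 47.5 in wild type and 25.7 and 22.5 in knockout (log2 -0.48, SE 0.32), with separate groups, and Efna1 36.2 and 33.5 against 35.6 and 63.2 (log2 0.33, SE 0.33), with groups that overlapped.

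Among the other cadherins, 5 of 9 were tested and 3 had negative changes (median -0.18). Cdh4, or R-cadherin, had -0.39 (SE 0.33), and Cdh13, a cadherin without an inner tail, had -0.34 (SE 0.35), with overlapping groups in both. The other catenins and partners of the adherens junction were even, with 7 of 16 negative (median 0.03). Ablim1, an actin-binding LIM protein, measured 245 and 231 in wild type and 169.6 and 143.5 in knockout, which did not overlap (log2 -0.56, SE 0.29, limma adjusted p = 1). Ctnna2, the neural alpha-catenin, had -0.42 (SE 0.38). All 6 of the 6 tested desmosome genes had negative changes (median -0.22), against 5959 of all 11595 genes. With trimmed-mean scaling 5 of 6 were negative. Among the desmosome genes were Ppl, periplakin, with separate groups (log2 -0.30, SE 0.29), and Dsc2, a desmosomal cadherin (-0.25, SE 0.36). Without knockout array 1, 2 of the 64 genes then tested passed, near the 2.41% of all genes that passed in that fit. They were Epha8 (log2 -1.74, adjusted p = 0.00188) and Dsp, desmoplakin (-1.27, adjusted p = 0.0418), which had -0.30 and -0.40 with all 4 arrays. Epha8 measured 89.4 and 35.4 in wild type and 145 and 6.06 in knockout, and Dsp 47.2 and 8.34 against 38.7 and 0.26, so that in each the value of knockout array 2 alone stood for its group. These 2 genes were chosen once their values were known.

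The integrin side was close to 0. Of the other integrin subunits, 4 of 8 had negative changes (median -0.02). Itgav, the alpha V chain, measured 548 and 527 in wild type and 444 and 364 in knockout (log2 -0.40, SE 0.27), with separate groups, and Itga1, a collagen-binding chain, had 0.42 (SE 0.36). Among integrin adaptors, 5 of 10 were negative (median 0.02). Ilk, integrin-linked kinase, measured 348 and 319.9 in wild type and 391 and 412 in knockout (log2 0.25, SE 0.27), with separate groups, and Bcar1 had 0.40 (SE 0.32). Of the genes known to be driven by beta-catenin, 3 of 6 were negative (median 0.02), with Myc at -0.61 (SE 0.42; 23.1 and 21.1 in wild type, 20.8 and 0.92 in knockout) and Nkd1, a Wnt inhibitor, at 0.30 (SE 0.29), both with separate groups. The adjusted p in limma was 1 for each of these. With values as deposited, the signs of Efna1, Itga1, Bcar1, Ilk and Nkd1 turned negative.

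**Figure D4:**
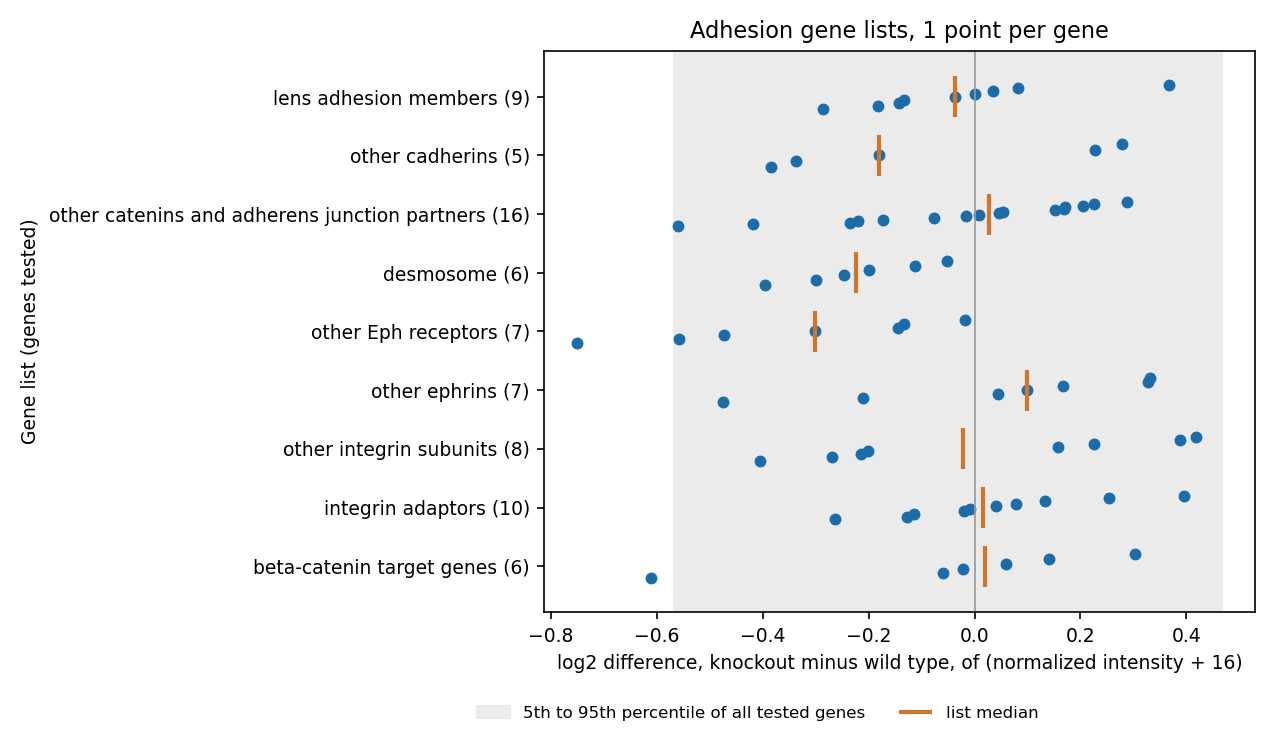
Log2 difference of knockout minus wild type for each tested gene of the adhesion lists, 1 point per gene with its brightest probe set, and the list median (orange). The grey band spans the 5th to 95th percentiles of all 11595 genes (-0.57 to 0.47). Only Epha3 at -0.75 and Myc at -0.61 lie outside it, and the Eph receptor and desmosome points all lie below 0 under this scaling.

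Beside these values, markers of some other tissues were dimmer on the knockout arrays. All 9 striated muscle markers were lower in both numbers and 3 passed in limma, with summed intensities from 1321 to 2648 in wild type and from 128 to 138 in knockout. Of the 8 tested fibroblast and pericyte markers, 7 were lower in both numbers (median -1.41, 0 past the threshold), with sums from 1892 to 2341 and from 1055 to 1408. Itgb1 and Cdh2 are also expressed in muscle and connective tissue, and the part of these cells in the adhesion values was not tested. Surface and corneal epithelium markers, whose cells carry Cdh1, Jup and Itga6, summed to 236 to 265 in wild type and 218 to 251 in knockout, with 2 of 6 tested genes negative. Macrophage, pigment cell and erythroid markers had medians of -0.02, 0.32 and 0.97 over 7, 5 and 4 tested genes.

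The genes whose pattern over the 4 arrays came nearest to each of the 9 were found by the root mean square distance of centred log2 values among 11586 genes. They were Max for Cdh1 (distance 0.007), Lztr1 for Cdh2 (0.032), Nipa1 for Ctnna1 (0.012), Pfn2 for Ctnnb1 (0.013), Sema4g for Jup (0.044), Stxbp2 for Epha2 (0.015), 2210408K08Rik for Efna5 (0.007), Tgif2 for Itga6 (0.015) and Pggt1b for Itgb1 (0.011). The likeness rests on 4 arrays. Cdh2 and Jup, which differed most between the array numbers, had the most distant nearest genes. The distance is not scaled to a gene's own spread over the arrays, which was largest for Cdh2 (root mean square 0.58) and Jup (0.53). The order of the distances therefore does not show that their patterns were unusual. Lztr1 measured 219 and 89.8 in wild type and 199 and 77.1 in knockout, and Sema4g 78.7 and 27.1 in wild type and 59.6 and 22.9 in knockout, high on the arrays numbered 1 in both groups like the genes they match.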

How the data were processed

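The authors deposited 1 linear intensity per probe set and array; which software made it, and with which background correction, is unknown here. Per the labels' protocols, RNA was isolated on columns and biotin-labelled. Intensities were quantile normalized (limma 3.58.1, R 4.3.3), and an offset of 16 was added before log2. After leaving out 64 control probe sets, those whose mean log2 value reached the median (4.86) were tested with limma's moderated test with a variance trend, 2 against 2 arrays with no block, and Benjamini-Hochberg adjustment over all 22519. A gene was represented by its brightest probe set (11595 genes). The procedure was tested on simulated data. The members and lists were chosen with earlier results of these data known. By the naming rule, all members are given with every probe set, and of each list the genes that passed or otherwise the 2 with the lowest p, and the 1 nearest gene per member. Alternatives were the scaling, offset, filter, variance model, block, way to combine probe sets and each array left out, with the signs within each number and list under each scaling added after seeing the data.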

Additional observations from a re-analysis of the deposited data

How the results depend on the processing

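Under every alternative that gave a test, 0 adhesion probe sets and 0 of the 9 genes passed; over 245 such values the adjusted p ran from 0.324 to 1. The other adhesion genes gave 0 to 2, the 2 without knockout array 1. Over all probe sets and all genes, 4 and 4 passed, against 0 and 0 with values as deposited and with no filter, 16 and 12 with median centring, 5 and 7 with trimmed-mean scaling, 0 genes with the mean of all probe sets, and 5 to 649 and 4 to 280 when 1 array was left out (649 and 280 without knockout array 1, 95 and 60 without knockout array 2; the lone array of a group is then assumed to vary like the others). With the array number as a replicate block, 317 probe sets and 200 genes passed. Among them were 0 of the 16 adhesion probe sets (lowest adjusted p 0.324), 0 of the 9 genes and 0 other adhesion genes. All 9 muscle markers and 6 of 8 fibroblast and pericyte markers passed there, lower in knockout. So did 3 of 7 lens fibre markers (Bfsp1 and Dnase2b lower, Bfsp2 higher). That fit leaves 1 residual degree of freedom, so its calls lean on the spread shared across probe sets. Bfsp2 passed there although its values within numbers 1 and 2 had opposite signs, -1.37 and 3.36. The labels do not say that the numbers pair samples. Deviations of same-numbered arrays correlated at 0.429, a value that with 2 arrays per group is the same for both numbers.

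Values as deposited and median centring moved the median of all probe sets to -0.42 and -0.25, and all 16 adhesion probe sets were then negative. The signs that turned were those of Cdh1 (-0.49 and -0.31), Ctnnb1 1430533_a_at (-0.59 and -0.42), Epha2 (-0.50 and -0.32), Efna5 (-0.47 and -0.30), Itga6 1422444_at (-0.23 and -0.057) and Itgb1 1427771_x_at (-0.21 and -0.033). Ilk (-0.34 and -0.17) and Nkd1 (-0.20 and -0.030) turned too, and with values as deposited Efna1 (-0.13), Itga1 (-0.0044) and Bcar1 (-0.17). Epha2 was -0.010 with trimmed-mean scaling and -0.0033 with offset 1. With the mean of all probe sets, Itgb1 was 0.11 and Itgav 0.018. Among others, Itga6 (0.075), Cdh4 (-0.066), Efna1 (0.029), Itga1 (0.098) and Epha3 (-0.42) were then smaller in size than with the brightest probe set. Efna5 (0.22) and Dsc2 (-0.37) were larger.

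With 1 array left out, values ran from -0.37 to 0.44 for Cdh1, -0.73 to 0.44 and -0.30 to 0.23 for Cdh2 1418815_at and 1449244_at, -0.20 to 0.13 for Ctnna1 1448149_at, -0.38 to 0.41 for Ctnnb1 1430533_a_at, -0.87 to 0.30 for Jup, -0.25 to 0.25 for Epha2, -0.065 to 0.23 for Efna5, -0.58 to 0.14 for Itga6 1422445_at, and -0.38 to 0.11 and -0.44 to 0.29 for Itgb1 1452545_a_at and 1426918_at. Ctnna2 ran from -0.92 (without knockout array 1) to 0.083 (without knockout array 2). Without knockout array 2, Epha3 was -0.37, Myc -0.050, Dsc2 -0.0092, Cdh13 -0.090, Itga1 0.070 and Efna1 0.023. Cdh4 was -0.038 without knockout array 1 and Bcar1 0.091 without wild-type array 2. Ablim1 was -0.14 with the mean of all probe sets. The signs of the other 5 tested probe sets did not turn, but their sizes moved: -0.43 to -0.28 for Ctnna1 1437807_x_at, -0.34 to -0.019 and -0.58 to -0.30 for Ctnnb1 1420811_a_at and 1450008_a_at, 0.018 to 0.72 for Itga6 1422444_at and 0.019 to 0.40 for Itgb1 1427771_x_at. The causes of these turns were not tested.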
